A study of Mus musculus with 20 samples.

Results

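Immediate early genes and the chaperones that answer cell stress were examined in microglia, which are the macrophages that live within brain tissue, across a crossing of Trem2 genotype and the 5XFAD transgenes. The set was a list of 35 gene symbols, and a member was measured where a probe set was annotated to its symbol alone. This held for 34 of the 35, all of which lay above the filter on weak signal, out of 12728 genes tested and 19751 genes with a probe set. The remaining member, Hspa1b, was only on a probe set annotated to several genes and is not described.

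The animals were littermates aged 8.5 months, and every array carried microglia that had been released from saline-perfused brains with a dissociation kit and sorted by flow cytometry into lysis buffer. There were 6 arrays of Trem2-/-5XFAD mice, 5 of 5XFAD mice, 4 of Trem2-/- mice and 4 of WT mice, each given a number by the labels (WT 1 to WT 4 and so on). 5XFAD mice carry mutant human amyloid precursor protein and presenilin transgenes that neurons express, and they form amyloid plaques. Trem2-/- mice lack, in all their cells, a lipid-sensing receptor that microglia carry on their surface. One further array, titled as WT but given the genotype Trem2-/-, entered no comparison. The labels do not say how many animals stand behind an array, so a p-value here reflects array-to-array spread, which may be technical. In sorted bulk RNA, fewer cells of a type and less RNA per cell cannot be told apart.

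Immediate early genes are switched on within minutes of a stimulus, without new protein synthesis, by factors that already sit at their promoters: the serum response factor, which binds the CArG box, and the cAMP-response-element binding factors. Their products are mostly transcription factors (the FOS, JUN, EGR, NR4A and KLF families) and the feedback proteins that end the response, such as the phosphatase Dusp1 and the mRNA-decay factor Zfp36. Enzymatic release and sorting of brain tissue is itself known to switch these genes on, which is why they are used as a sign of activation outside the body. Heat-shock chaperones, under a separate factor, HSF1, answer unfolded protein and are raised by the same handling.

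Of the 7 members that were higher in 5XFAD than in WT arrays, the promoters of Nr4a3, Nr4a2 and Egr2 are shown. That of Nr4a1 is shown as their relative, and that of Klf2 as 1 of the 11 members that were lower. Each line holds the 250 bases before the start of the transcript, 5′ to 3′ on the gene's strand, as given by RefSeq for GRCm38.p6. Capitals mark the core site of the cAMP response element, TGACG, or its reverse complement CGTCA, and the CArG box. The window shown for Egr2 is the most downstream of those listed for the gene.
Nr4a3, chr4:48045055-48045304, plus strand: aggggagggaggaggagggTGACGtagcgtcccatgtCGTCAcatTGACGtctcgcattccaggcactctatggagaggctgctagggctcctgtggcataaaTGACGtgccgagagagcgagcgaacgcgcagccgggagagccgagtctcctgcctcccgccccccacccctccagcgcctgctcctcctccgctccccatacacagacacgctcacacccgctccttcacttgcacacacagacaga
Nr4a2, chr2:57124004-57124253, minus strand: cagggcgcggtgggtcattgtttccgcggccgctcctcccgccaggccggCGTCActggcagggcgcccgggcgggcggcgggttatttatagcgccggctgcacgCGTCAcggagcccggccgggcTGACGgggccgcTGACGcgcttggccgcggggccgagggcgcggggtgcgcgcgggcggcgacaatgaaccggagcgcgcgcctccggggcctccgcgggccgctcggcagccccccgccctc
Nr4a1, chr15:101266596-101266845, plus strand: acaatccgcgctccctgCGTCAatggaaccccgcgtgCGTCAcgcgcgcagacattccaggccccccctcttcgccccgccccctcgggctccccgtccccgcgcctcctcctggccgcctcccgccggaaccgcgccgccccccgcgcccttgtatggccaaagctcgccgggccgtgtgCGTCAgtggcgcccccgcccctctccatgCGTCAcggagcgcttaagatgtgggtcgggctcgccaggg
Egr2, chr10:67537680-67537929, plus strand: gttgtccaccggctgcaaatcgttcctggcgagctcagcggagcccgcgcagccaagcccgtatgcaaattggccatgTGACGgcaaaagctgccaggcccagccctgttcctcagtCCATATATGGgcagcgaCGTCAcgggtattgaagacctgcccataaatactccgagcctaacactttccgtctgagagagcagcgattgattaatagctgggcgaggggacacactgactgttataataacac
Klf2, chr8:72318812-72319061, plus strand: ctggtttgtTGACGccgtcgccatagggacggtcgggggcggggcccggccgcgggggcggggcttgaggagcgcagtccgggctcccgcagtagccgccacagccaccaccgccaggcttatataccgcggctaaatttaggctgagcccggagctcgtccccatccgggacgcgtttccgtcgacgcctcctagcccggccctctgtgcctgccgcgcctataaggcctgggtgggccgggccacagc

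The core site was found on either strand in 17.8% of 32851 promoter windows of the same length. RefSeq promoter windows were matched for 29 of the 35 members, and 15 of these (51.7%) had at least 1 core site in a window. Some members had several windows, and counted by window 18 of 37 (48.6%) held a core site. Nr4a1, Nr4a2 and Nr4a3 each held 4, and 4 or more were present in 0.137% of all windows. No other member reached 4. The CArG box was present in 1.47% of all windows and, among members, in those of Egr2 and Zfp36. A match is a run of letters in this window and not evidence of binding.

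Trem2 itself, which checks the genotype labels, had log2 levels of 6.75 to 7.60 in Trem2-/-5XFAD arrays and 11.45 to 11.80 in 5XFAD arrays, and 6.84 to 7.02 in Trem2-/- arrays and 11.14 to 11.39 in WT arrays. Here and below, a level is log2(intensity + 1), a difference is between group means of such levels, and a fold is 2 to the power of that difference. Microglial markers averaged 10.63 to 11.21 on every array of the 4 groups, and neuronal markers 3.90 to 4.33, near the weak-signal filter of 4.16 to 4.34. Other signals differed between arrays. Salivary gland markers averaged 5.47 to 5.98 on WT 1, WT 2, 5XFAD 1 and 5XFAD 2 and 3.21 to 4.41 on the other 15 arrays. Y-linked genes gave a signal on 6 of 6 Trem2-/-5XFAD, 4 of 5 5XFAD, 1 of 4 Trem2-/- and 1 of 4 WT arrays.

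WT 3 and WT 4 stood apart as a pair in part of these genes. The pair was picked after the data were seen, and no other pair was counted, so its share cannot be ranked among pairs. Taken singly, 5XFAD 1 was the lowest array in 9 members, WT 4 in 7 and WT 3 in 5. The median absolute deviation of the members was 0.328 on WT 3, 0.291 on 5XFAD 3, 0.274 on 5XFAD 1 and 0.266 on WT 4. In 15 of the 34 members (44.1%) both WT 3 and WT 4 lay outside the range of the other 17 arrays, against 4.82% of all genes tested. Both lay below it in 10 members (29.4%, against 2.37% of all genes): Fosl2, Maff, the 3 NR4A receptors, Klf10, Bcl6, Dusp2, Hspa1a and Nfkbiz. Both lay above it in 5 members (14.7%, against 2.44%): Fos, Dusp1, Zfp36, Btg2 and, on 1 of its 2 probe sets, Socs3. The transcriptional repressor Bcl6 had levels of 7.28 and 7.27 on WT 3 and WT 4 and of 9.30 and 9.05 on WT 1 and WT 2. The phosphatase Dusp2 had 6.76 and 6.78 on WT 3 and WT 4 and 7.84 and 8.65 on WT 1 and WT 2.

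The median SD of the members within a group was 0.15 in Trem2-/-5XFAD, 0.15 in 5XFAD and 0.11 in Trem2-/- arrays, and 0.24 in WT arrays. The median over all genes was 0.19, 0.20, 0.20 and 0.23 in the same order. In WT arrays 7 members had an SD above 0.5. In 5XFAD and Trem2-/- arrays no member had, and in Trem2-/-5XFAD arrays Gadd45b alone. Differences from WT are given with all arrays and, beside the members' calls, without WT 3 and WT 4, an alternative chosen after the data were seen. The salivary gland signal was on WT 1 and WT 2 but not on WT 3 and WT 4. With salivary gland markers as a covariate 20 members were called in 5XFAD against WT and 5 in Trem2-/-5XFAD against 5XFAD, where Egr2 and Nr4a2 were lost. The map of single arrays shows the WT group on the right.

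**Figure D1:**
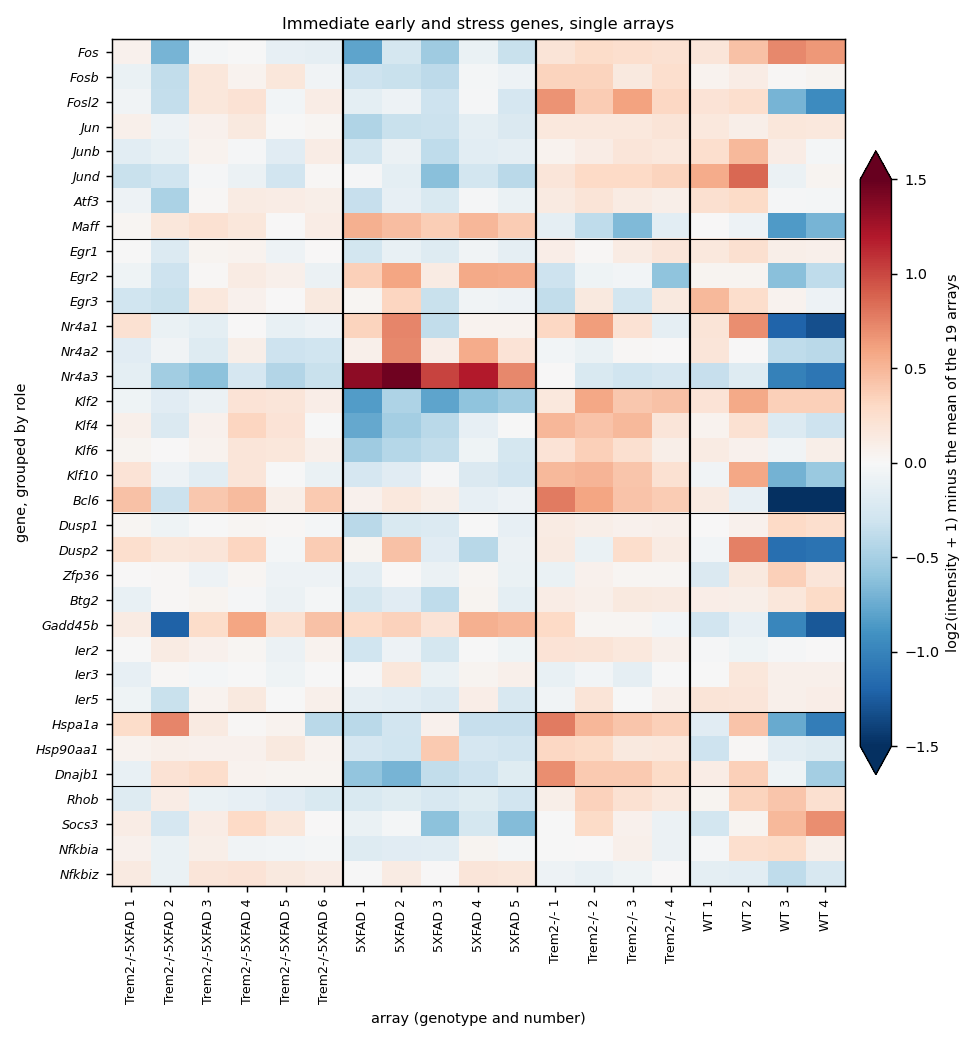
Level of each measured member on each of the 19 arrays, as log2(intensity + 1) minus the gene's mean over the 19 arrays (red above, blue below), with arrays in columns by genotype and genes in rows by role. On WT 3 and WT 4 the 3 NR4A receptors, Bcl6, Dusp2 and Hspa1a are blue, and Nr4a3 is red on all 5 5XFAD arrays.

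The first comparison asks how these genes stood in microglia of mice with the 5XFAD transgenes and an intact Trem2. Of the 34 members, 18 (52.9%) differed between 5XFAD and WT, 7 higher and 11 lower, by limma with a Benjamini-Hochberg adjusted p under 0.05 over all genes. Over all genes 15.0% were called, 8.23% higher and 6.77% lower. The median difference was −0.23 over the members and −0.02 over all genes. Some members rose and others fell: 4 AP-1 subunits, Klf2, Klf6, Egr1, Dusp1, Btg2, Rhob and Socs3 were lower, and Nr4a2, Nr4a3, Egr2, Maff, Gadd45b, Bcl6 and Nfkbiz were higher. Without WT 3 and WT 4, 11 members were called, 2 higher (Nr4a3 and Maff) and 9 lower, where 11.7% of all genes were called. Without WT 1, WT 2, 5XFAD 1 and 5XFAD 2, 16 were called (11.3% of all genes), among them Nr4a1, Dusp2 and Fosl2, which were not called with all arrays. That setting kept 13 of the 18 calls and lost those of Btg2, Egr1, Junb, Jund and Klf6. In 15 members the groups did not overlap, against 13.4% of all genes.

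The second comparison asks how they stood when Trem2 was missing and the transgenes were present. Between Trem2-/-5XFAD and 5XFAD, 7 members (20.6%) differed, 4 higher and 3 lower, where 7.68% of all genes were called, 3.21% higher and 4.46% lower. The median difference was 0.15 over the members and 0.04 over all genes. In 6 members the groups did not overlap, against 7.14% of all genes. Leaving out WT 3 and WT 4, which bear here on the spread alone, 9 were called (8.27% of all genes). Leaving out WT 1, WT 2, 5XFAD 1 and 5XFAD 2, 5 were called (4.55%), and 3 of these were among the 7. Dnajb1, Egr2, Jun and Klf6 were lost there, and Dusp2 and Socs3 were gained. This comparison shares the 5XFAD arrays with the first, so their values are given side by side for each gene and not as independent results. The paired plot of differences gives both for all members.

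**Figure D2:**
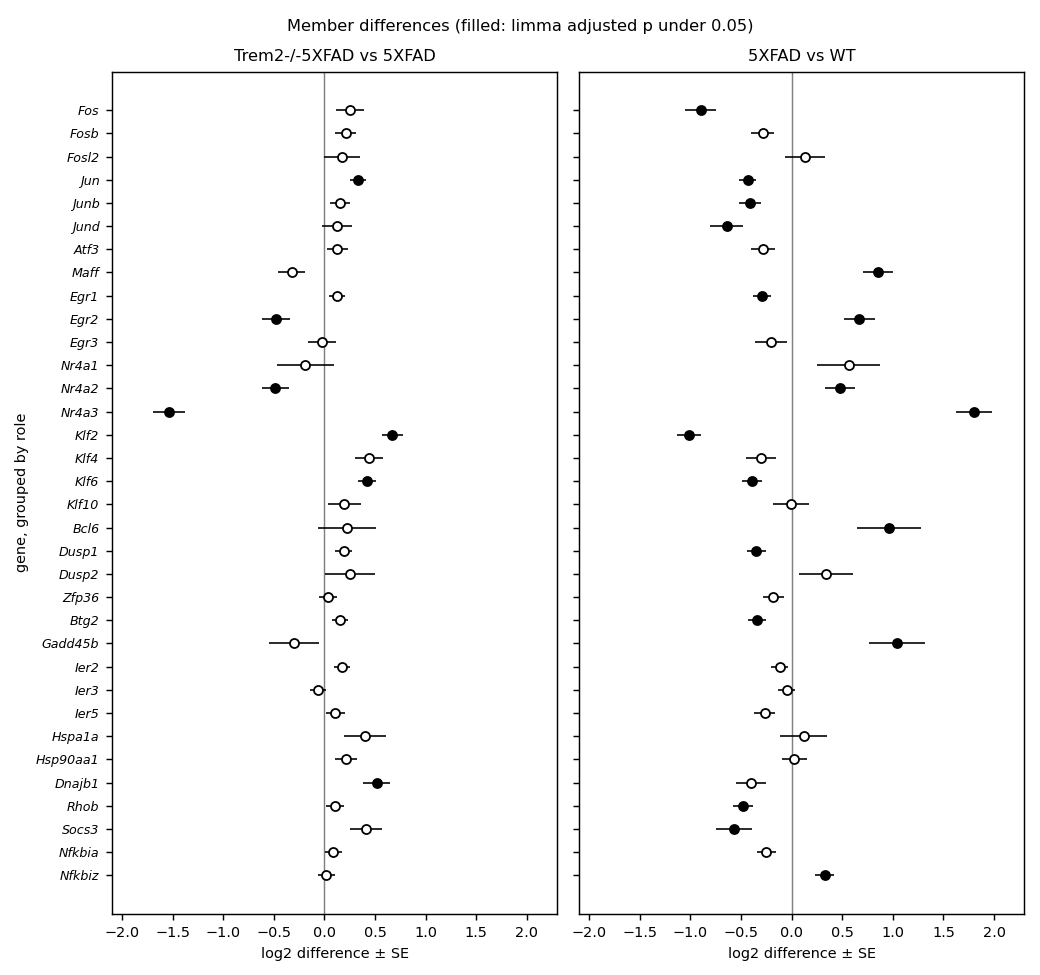
Difference in log2 level with its standard error for each measured member, Trem2-/-5XFAD minus 5XFAD on the left and 5XFAD minus WT on the right, from 1 limma model over 19 arrays. Filled points have an adjusted p under 0.05: 7 on the left and 18 on the right, with Nr4a3 at −1.53 and 1.80 the farthest from 0.

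The NR4A receptors are orphan nuclear receptors that need no ligand and are induced within the first hour of stimulation. Nr4a3 had the largest difference of any member in both comparisons. Its levels were 5.35 to 5.82 on Trem2-/-5XFAD arrays (median 5.58), 7.32, 7.43, 6.99, 7.16 and 6.69 on 5XFAD arrays, 5.97, 5.73, 5.67 and 5.72 on Trem2-/- arrays, and 5.63, 5.78, 4.96 and 4.89 on WT arrays. All 5 5XFAD arrays lay above every array of the other 3 groups. On those other arrays the signal was weak, 4.89 to 5.97, against the weak-signal filter of 4.16 to 4.34. Nr4a3 was 3.49-fold higher in 5XFAD than in WT (1.80 ± 0.18 SE, limma adjusted p = 2.27e-07). It fell by 1.53 ± 0.16 in Trem2-/-5XFAD against 5XFAD (adjusted p = 1.11e-06). The first difference was 1.41 ± 0.17 without WT 3 and WT 4 (adjusted p = 1.77e-05).

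Nr4a2, the dopaminergic-neuron factor Nurr1, was a weak signal. It had 4.95 to 5.35 on Trem2-/-5XFAD arrays (median 5.08), 5.33, 5.98, 5.36, 5.81 and 5.46 on 5XFAD arrays, 5.22, 5.15, 5.27 and 5.26 on Trem2-/- arrays, and 5.44, 5.26, 4.87 and 4.86 on WT arrays. The 5XFAD values overlapped those of WT 1 and the highest Trem2-/-5XFAD array. Its difference was 0.48 ± 0.15 for 5XFAD against WT (adjusted p = 0.0278) and −0.49 ± 0.13 for Trem2-/-5XFAD against 5XFAD (adjusted p = 0.0242). The first call was lost without WT 3 and WT 4 (0.24 ± 0.16, adjusted p = 0.41). It was also lost without any 1 of WT 3, WT 4, 5XFAD 2 or 5XFAD 4 (adjusted p 0.0736 to 0.103), and the second without 5XFAD 2, 5XFAD 4, Trem2-/-5XFAD 5 or Trem2-/-5XFAD 6 (0.0558 to 0.0877).

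Nr4a1, known as Nur77, was called in no comparison with all arrays. It had 10.29 to 10.66 on Trem2-/-5XFAD arrays (median 10.34), 10.76, 11.16, 10.05, 10.48 and 10.48 on 5XFAD arrays, 10.74, 11.06, 10.64 and 10.29 on Trem2-/- arrays, and 10.63, 11.13, 9.22 and 9.11 on WT arrays. Apart from WT 3 and WT 4 the groups overlapped throughout. The 5XFAD minus WT difference was 0.57 ± 0.31 with all arrays (adjusted p = 0.254) and −0.29 ± 0.23 without WT 3 and WT 4 (adjusted p = 0.488). It was 1.17 ± 0.19 with WT 3 and WT 4 as the only WT arrays, without 5XFAD 1 and 5XFAD 2 (adjusted p = 0.000576).

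The early growth response factors are zinc-finger proteins that carry an immediate early signal to its later targets. Egr2 had 9.997 to 10.43 on Trem2-/-5XFAD arrays (median 10.29), 10.66, 10.90, 10.43, 10.87 and 10.87 on 5XFAD arrays, 9.998, 10.24, 10.27 and 9.70 on Trem2-/- arrays, and 10.34, 10.35, 9.68 and 9.92 on WT arrays. The 5XFAD arrays lay above all WT arrays, and the lowest of them was level with the highest Trem2-/-5XFAD array. Egr2 was higher in 5XFAD than in WT by 0.67 ± 0.15 (adjusted p = 0.00406) and was lower in Trem2-/-5XFAD than in 5XFAD (−0.48 ± 0.14, adjusted p = 0.036). The first was 0.40 ± 0.17 without WT 3 and WT 4 (adjusted p = 0.139). The second was lost without 8 single arrays, 5XFAD 1, 2, 4 or 5 and Trem2-/-5XFAD 1, 2, 3 or 6 (adjusted p 0.0532 to 0.0969).

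Egr1 moved the other way and little. It had 11.97 to 12.22 on Trem2-/-5XFAD arrays (median 12.17), 11.90, 12.06, 11.97, 12.12 and 12.04 on 5XFAD arrays, 12.27, 12.19, 12.29 and 12.35 on Trem2-/- arrays, and 12.33, 12.42, 12.26 and 12.25 on WT arrays. The 5XFAD arrays all lay below the WT arrays (−0.29 ± 0.09, adjusted p = 0.0236), and the difference was −0.35 ± 0.11 without WT 3 and WT 4 (adjusted p = 0.0405). The call was lost without WT 2 (adjusted p = 0.0746) or 5XFAD 1 (0.0631). Egr3 was called in no comparison, with levels of 5.90 to 6.75 over the 19 arrays.

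AP-1 is a dimer of JUN proteins with each other or with FOS or ATF partners, and small MAF proteins are related factors that dimerize through the same kind of domain. Of the 8 members of these families measured here, 4 fell and 1 rose in 5XFAD against WT. Fos had 10.63 to 11.39 on Trem2-/-5XFAD arrays (median 11.25), 10.53, 11.06, 10.79, 11.23 and 10.99 on 5XFAD arrays, 11.51, 11.60, 11.57 and 11.55 on Trem2-/- arrays, and 11.50, 11.76, 12.04 and 11.97 on WT arrays. Every array of the groups with 5XFAD transgenes lay below every array of the groups without them. Fos fell by 0.90 ± 0.15 in 5XFAD against WT (1.87-fold lower, adjusted p = 0.000281), and by 0.71 ± 0.19 without WT 3 and WT 4 (adjusted p = 0.0176). Trem2-/-5XFAD minus 5XFAD was 0.25 ± 0.14 (adjusted p = 0.34).

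Jun had 11.60 to 11.82 on Trem2-/-5XFAD arrays (median 11.72), 11.23, 11.34, 11.35, 11.53 and 11.46 on 5XFAD arrays, 11.84, 11.84, 11.83 and 11.87 on Trem2-/- arrays, and 11.83, 11.76, 11.84 and 11.83 on WT arrays. The 5XFAD arrays lay below all others, and WT 3 and WT 4 were level with WT 1 and WT 2. Jun was lower in 5XFAD than in WT (−0.43 ± 0.08, adjusted p = 0.00093) and higher in Trem2-/-5XFAD than in 5XFAD (0.33 ± 0.08, adjusted p = 0.00782). The first was −0.41 ± 0.11 without WT 3 and WT 4 (adjusted p = 0.0167). The second was not called without WT 1, WT 2, 5XFAD 1 and 5XFAD 2 (0.27 ± 0.09, adjusted p = 0.113). Jun and Fos kept their call for 5XFAD against WT in every alternative run.

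Junb and Jund, the JUN proteins that hold back proliferation in many cells, also fell in 5XFAD against WT. Junb had 8.79, 8.98, 8.68, 8.91 and 8.93 on 5XFAD arrays and 9.32, 9.55, 9.17 and 9.04 on WT arrays, with no overlap (−0.41 ± 0.11, adjusted p = 0.0103). Jund had 9.57, 9.44, 8.96, 9.31 and 9.19 on 5XFAD arrays and 10.15, 10.46, 9.50 and 9.64 on WT arrays, where 5XFAD 1 lay above WT 3 (−0.64 ± 0.16, adjusted p = 0.00884). Without WT 3 and WT 4 the Junb difference was −0.58 ± 0.12 (adjusted p = 0.00361) and the Jund difference −1.01 ± 0.15 (adjusted p = 0.000209). On WT 3 and WT 4 alone as the WT arrays, with 5XFAD 1 and 5XFAD 2 also left out, neither was called (Junb −0.26 ± 0.13, adjusted p = 0.242, and Jund −0.41 ± 0.15, adjusted p = 0.083).

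Maff, a small MAF protein that binds DNA without an activating domain, was the member of these families that rose. It had 7.92 to 8.14 on Trem2-/-5XFAD arrays (median 8.05), 8.44, 8.37, 8.28, 8.40 and 8.29 on 5XFAD arrays, 7.78, 7.53, 7.24 and 7.74 on Trem2-/- arrays, and 7.91, 7.83, 7.06 and 7.21 on WT arrays. All 5XFAD arrays lay above all others. Maff was higher in 5XFAD than in WT by 0.85 ± 0.15 (adjusted p = 0.000392), and by 0.48 ± 0.13 without WT 3 and WT 4 (adjusted p = 0.0227). Fosb, Fosl2 and Atf3 were not called, with 5XFAD minus WT differences of −0.29 ± 0.11, 0.13 ± 0.20 and −0.28 ± 0.12 with all arrays. Leaving out WT 3 and WT 4, the Fosb difference was −0.32 ± 0.15 (adjusted p = 0.19), the Atf3 difference −0.43 ± 0.15 (adjusted p = 0.0661), and the Fosl2 difference turned in sign (−0.40 ± 0.15, adjusted p = 0.101). Fosl2 was called without WT 1, WT 2, 5XFAD 1 and 5XFAD 2 (0.63 ± 0.17, adjusted p = 0.0267).

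**Figure D3:**
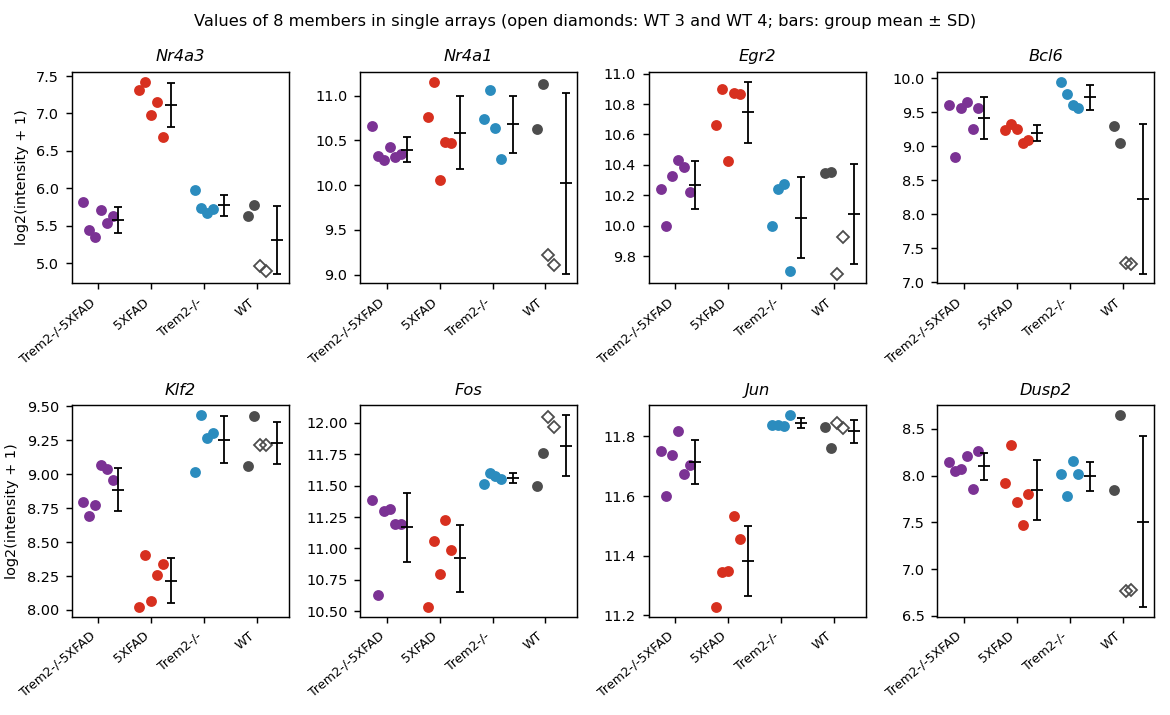
Level, log2(intensity + 1), of 8 members on each of the 19 arrays, by genotype, with the group mean and SD as a bar beside the points and WT 3 and WT 4 as open diamonds. Nr4a3 is 6.69 to 7.43 on 5XFAD arrays and 4.89 to 5.97 on the rest, and Bcl6, Nr4a1 and Dusp2 have a WT group in 2 parts.

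Klf2, a zinc-finger factor that holds macrophages and endothelial cells quiescent, had the deepest fall of any member in 5XFAD. It had 8.69 to 9.07 on Trem2-/-5XFAD arrays (median 8.88), 8.02, 8.40, 8.06, 8.26 and 8.34 on 5XFAD arrays, 9.02, 9.44, 9.27 and 9.30 on Trem2-/- arrays, and 9.06, 9.43, 9.21 and 9.21 on WT arrays. The 5XFAD arrays lay below all others, and 4 of 6 Trem2-/-5XFAD arrays lay below every Trem2-/- and WT array. Klf2 was 2.02-fold lower in 5XFAD than in WT (−1.01 ± 0.12, adjusted p = 2.7e-06) and 1.59-fold higher in Trem2-/-5XFAD than in 5XFAD (0.67 ± 0.11, adjusted p = 0.000265). The first was −1.03 ± 0.15 without WT 3 and WT 4 (adjusted p = 0.000163).

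Klf6, a relative induced by injury, had 10.96 to 11.14 on Trem2-/-5XFAD arrays (median 11.02), 10.42, 10.53, 10.59, 10.88 and 10.69 on 5XFAD arrays, 11.15, 11.31, 11.20 and 11.04 on Trem2-/- arrays, and 11.07, 11.01, 10.90 and 11.04 on WT arrays. The 5XFAD arrays again lay below all others. Its differences were −0.39 ± 0.10 for 5XFAD against WT (adjusted p = 0.00897) and 0.42 ± 0.09 for Trem2-/-5XFAD against 5XFAD (adjusted p = 0.00407). The first was −0.42 ± 0.13 without WT 3 and WT 4 (adjusted p = 0.0334). Neither was called without WT 1, WT 2, 5XFAD 1 and 5XFAD 2 (−0.25 ± 0.13 and 0.32 ± 0.10, adjusted p = 0.263 and 0.0859). Klf4 missed the threshold for Trem2-/-5XFAD against 5XFAD (0.44 ± 0.14, adjusted p = 0.0513), and Klf10 was called in no comparison.

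Bcl6, which represses inflammatory genes in macrophages, had the widest range of the members over the 19 arrays (2.68). It had 8.85 to 9.64 on Trem2-/-5XFAD arrays (median 9.57), 9.23, 9.32, 9.25, 9.05 and 9.09 on 5XFAD arrays, 9.95, 9.76, 9.60 and 9.55 on Trem2-/- arrays, and 9.30, 9.05, 7.28 and 7.27 on WT arrays. Its difference was 0.97 ± 0.32 for 5XFAD against WT (adjusted p = 0.0425) and 1.49 ± 0.33 for Trem2-/- against WT (adjusted p = 0.041). Without WT 3 and WT 4 these were 0.02 ± 0.18 (adjusted p = 0.969) and 0.54 ± 0.19 (adjusted p = 0.226). On WT 3 and WT 4 as the only WT arrays, without 5XFAD 1 and 5XFAD 2, they were 1.86 ± 0.20 and 2.44 ± 0.19. Leaving out 1 array ended the first call for 12 of 19 arrays (adjusted p 0.0501 to 0.185) and the second for 16 of 19 (0.0513 to 0.142), WT 3 and WT 4 among both.

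The feedback group brings the response to an end: Dusp1 and Dusp2 remove phosphate from MAP kinases, Zfp36 degrades short-lived mRNAs, and Btg2 and Gadd45b slow the cell cycle. Of its 8 members, 2 fell and 1 rose in 5XFAD against WT. Dusp1 had 12.06, 12.23, 12.25, 12.45 and 12.33 on 5XFAD arrays and 12.46, 12.53, 12.76 and 12.71 on WT arrays (−0.35 ± 0.09, adjusted p = 0.012). Btg2 had 11.09, 11.18, 10.97, 11.39 and 11.19 on 5XFAD arrays and 11.44, 11.43, 11.52 and 11.63 on WT arrays (−0.34 ± 0.09, adjusted p = 0.0121). Neither overlapped between the groups, and WT 3 and WT 4 were the highest of all arrays in both. Without them neither was called (−0.23 ± 0.11, adjusted p = 0.203, and −0.27 ± 0.11, adjusted p = 0.134), and without WT 3 alone Dusp1 was not (adjusted p = 0.052).

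Gadd45b had 8.59 to 10.39 on Trem2-/-5XFAD arrays (median 10.05), 10.10, 10.14, 10.01, 10.33 and 10.30 on 5XFAD arrays, 10.10, 9.83, 9.83 and 9.76 on Trem2-/- arrays, and 9.51, 9.68, 8.82 and 8.53 on WT arrays. All 5XFAD arrays lay above all WT arrays, and Trem2-/-5XFAD 2 lay far below its group. Gadd45b was 2.06-fold higher in 5XFAD than in WT (1.04 ± 0.27, adjusted p = 0.0117). The difference was 0.58 ± 0.31 without WT 3 and WT 4 (adjusted p = 0.259) and 0.84 without WT 4 alone (adjusted p = 0.0554). Trem2-/-5XFAD minus 5XFAD was −0.30 ± 0.25, and −0.04 ± 0.17 without Trem2-/-5XFAD 2.

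Dusp2, the phosphatase of activated immune cells, was called in no comparison with all arrays. It had 7.86 to 8.26 on Trem2-/-5XFAD arrays (median 8.11), 7.92, 8.33, 7.72, 7.47 and 7.80 on 5XFAD arrays, 8.02, 7.78, 8.16 and 8.01 on Trem2-/- arrays, and 7.84, 8.65, 6.76 and 6.78 on WT arrays. Its 5XFAD minus WT difference was 0.34 ± 0.27 with all arrays and −0.40 ± 0.21 without WT 3 and WT 4. With WT 3 and WT 4 as the only WT arrays, without 5XFAD 1 and 5XFAD 2, it was 0.89 ± 0.15 (adjusted p = 0.000707). Zfp36 and the early response genes Ier2, Ier3 and Ier5 were called in no comparison. Ier3 had the narrowest range of all members, 11.21 to 11.52.

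Among the regulators of signalling, Rhob, a small GTPase, had 9.76, 9.82, 9.75, 9.81 and 9.71 on 5XFAD arrays and 10.03, 10.32, 10.41 and 10.24 on WT arrays. The groups did not overlap (−0.48 ± 0.10, adjusted p = 0.00142), and Rhob was called without WT 3 and WT 4 too (−0.41 ± 0.12, adjusted p = 0.0329). Socs3, which blocks JAK kinases below the interleukin-6 receptor, had 9.54, 9.62, 9.02, 9.38 and 8.99 on 5XFAD arrays and 9.36, 9.69, 10.13 and 10.34 on WT arrays (−0.57 ± 0.18, adjusted p = 0.0313). WT 1 lay within the 5XFAD values. The Socs3 difference was −0.21 ± 0.18 without WT 3 and WT 4 (adjusted p = 0.52), and without any 1 of WT 3, WT 4, 5XFAD 3 or 5XFAD 5 the adjusted p was 0.0813 to 0.13. On a second probe set Socs3 had 9.11, 9.18, 8.94, 9.14 and 9.11 on 5XFAD arrays and 9.56, 9.59, 9.73 and 9.82 on WT arrays. There the groups did not overlap (−0.58), and WT 3 lay within the values of Trem2-/-5XFAD arrays.

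Nfkbiz, an atypical inhibitor protein of NF-kappaB that switches on secondary response genes, had 11.05, 11.19, 11.08, 11.25 and 11.24 on 5XFAD arrays and 10.92, 10.91, 10.68 and 10.82 on WT arrays, with no overlap (0.33 ± 0.09, adjusted p = 0.0172). It was not called without WT 3 and WT 4 (0.24 ± 0.11, adjusted p = 0.181) or without WT 3 alone (0.27, adjusted p = 0.0706). Nfkbia, the classical inhibitor, was not called (−0.25 ± 0.09, adjusted p = 0.0695), nor without WT 3 and WT 4 (−0.22 ± 0.11, adjusted p = 0.247).

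Of the 3 chaperones measured, Dnajb1 was called, in 1 comparison. Dnajb1, the co-chaperone that hands substrates to Hsp70, had 9.47 to 9.85 on Trem2-/-5XFAD arrays (median 9.64), 8.99, 8.89, 9.22, 9.28 and 9.40 on 5XFAD arrays, 10.28, 9.98, 9.98 and 9.87 on Trem2-/- arrays, and 9.69, 9.94, 9.53 and 9.07 on WT arrays. The 5XFAD arrays lay below all Trem2-/-5XFAD arrays (0.51 ± 0.13, adjusted p = 0.0194). That call was lost without 5XFAD 1 (adjusted p = 0.0639) or 5XFAD 2 (0.0669). For 5XFAD against WT the difference was −0.40 ± 0.15 (adjusted p = 0.0748), and −0.66 ± 0.15 without WT 3 and WT 4 (adjusted p = 0.00753).

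Hspa1a, the inducible Hsp70, ranged from 7.47 on WT 4 to 9.29 on Trem2-/- 1. It had 8.11 to 9.24 on Trem2-/-5XFAD arrays (median 8.60), 8.10, 8.22, 8.57, 8.16 and 8.17 on 5XFAD arrays, 9.29, 9.004, 8.93 and 8.86 on Trem2-/- arrays, and 8.34, 8.94, 7.75 and 7.47 on WT arrays. Trem2-/- minus WT was 0.90 ± 0.25 (adjusted p = 0.117), and 0.38 ± 0.23 without WT 3 and WT 4 (adjusted p = 0.529). Hsp90aa1, the inducible Hsp90, had 3 probe sets. Trem2-/-5XFAD minus 5XFAD was 0.21 and 0.25 on 2 of them and −0.14 on the third, so that they disagreed in sign, and the gene was called in no comparison on the probe set used.

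The third comparison asks how they stood when Trem2 was missing and the transgenes were absent. Bcl6 was the single member called between Trem2-/- and WT, where 0.613% of all genes were called, 0.385% higher and 0.228% lower. On the arrays without WT 3 and WT 4 no member was called by limma (0.589% of all genes), and 5XFAD and Trem2-/-5XFAD arrays still set part of the spread. At an unadjusted p under 0.05 with all arrays, 9 members were higher (26.5%) and 0 lower, against 6.58% and 5.81% of all genes. This count includes WT 3 and WT 4, which lay below all other arrays in 10 members. No such count is given without them. The median difference was 0.05 over the members and −0.01 over all genes, and without WT 3 and WT 4 it was 0.03 over the members. In 7 members (Fosb, Fosl2, Bcl6, Gadd45b, Ier2, Hsp90aa1 and Nfkbiz) all Trem2-/- arrays lay above all WT arrays, where 5.79% of all genes had groups that did not overlap. With WT 3 and WT 4 as the only WT arrays, without 5XFAD 1 and 5XFAD 2, 9 members were called higher, where 2.13% of all genes were called. They were Bcl6, Dnajb1, Dusp2, Fosl2, Hspa1a, Klf10, Klf4, Nr4a1 and Nr4a3.

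The fourth comparison, Trem2-/-5XFAD against Trem2-/-, uses no WT array. No member was called by limma, where 2.18% of all genes were, 1.63% higher and 0.558% lower, and with a trend on mean level in the same test 1 was. At an unadjusted p under 0.05, 1 member was higher (2.94%) and 9 were lower (26.5%), against 8.26% and 6.04% of all genes. The median difference was −0.14 over the members and 0.02 over all genes. In 10 members the groups did not overlap, against 6.01% of all genes. Maff lay higher in Trem2-/-5XFAD, and Fos, Fosl2, Jun, Jund, Klf10, Dusp1, Btg2, Hsp90aa1 and Dnajb1 lay lower. The Fos difference was −0.39 ± 0.15 (adjusted p = 0.203), the Maff difference 0.46 ± 0.15 (adjusted p = 0.119) and the Rhob difference, the one with the smallest adjusted p, −0.32 ± 0.09 (0.0797). Leaving out arrays changes the shared spread: 2 members were called without WT 3 and WT 4 (Fosl2 and Maff, 2.61% of all genes), and 4 without WT 1, WT 2, 5XFAD 1 and 5XFAD 2 (Fosl2, Jund, Klf10 and Maff, 3.23%).

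The interaction tests whether the change with 5XFAD transgenes differed between Trem2-/- mice and mice with Trem2. It was called for 2 members, 1 positive and 1 negative, where 2.60% of all genes were, 1.02% positive and 1.58% negative. For Nr4a3 it was −1.99 ± 0.24 (adjusted p = 4.98e-05): the change was −0.19 ± 0.17 in mice without Trem2 and 1.80 ± 0.18 in mice with it. For Klf2 it was 0.64 ± 0.16 (adjusted p = 0.0374), with changes of −0.37 ± 0.11 in mice without Trem2 and −1.01 ± 0.12 in mice with it. On the arrays without WT 3 and WT 4 Nr4a3 stayed past the threshold (−1.61 ± 0.22, adjusted p = 0.000459) and Klf2 did not (0.66 ± 0.19, adjusted p = 0.0949). Leaving out 1 array ended the Klf2 call for 12 of 19 arrays, 3 WT, 3 Trem2-/-, 3 5XFAD and 3 Trem2-/-5XFAD ones, with adjusted p between 0.0507 and 0.0909. The share of all genes called was 1.73% without WT 3 and WT 4 and 2.83% without WT 1, WT 2, 5XFAD 1 and 5XFAD 2, where 9 members were called, Nr4a3 among them and Klf2 not. Leaving out Trem2-/-5XFAD 2 gave 1 member for Trem2-/-5XFAD against Trem2-/- (1.92% of all genes), 1 for Trem2-/- against WT (0.605%) and 2 for the interaction (2.84%). For the other called members the interaction was not past the threshold, which does not show that their change was alike in both Trem2 genotypes.

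**Figure D4:**
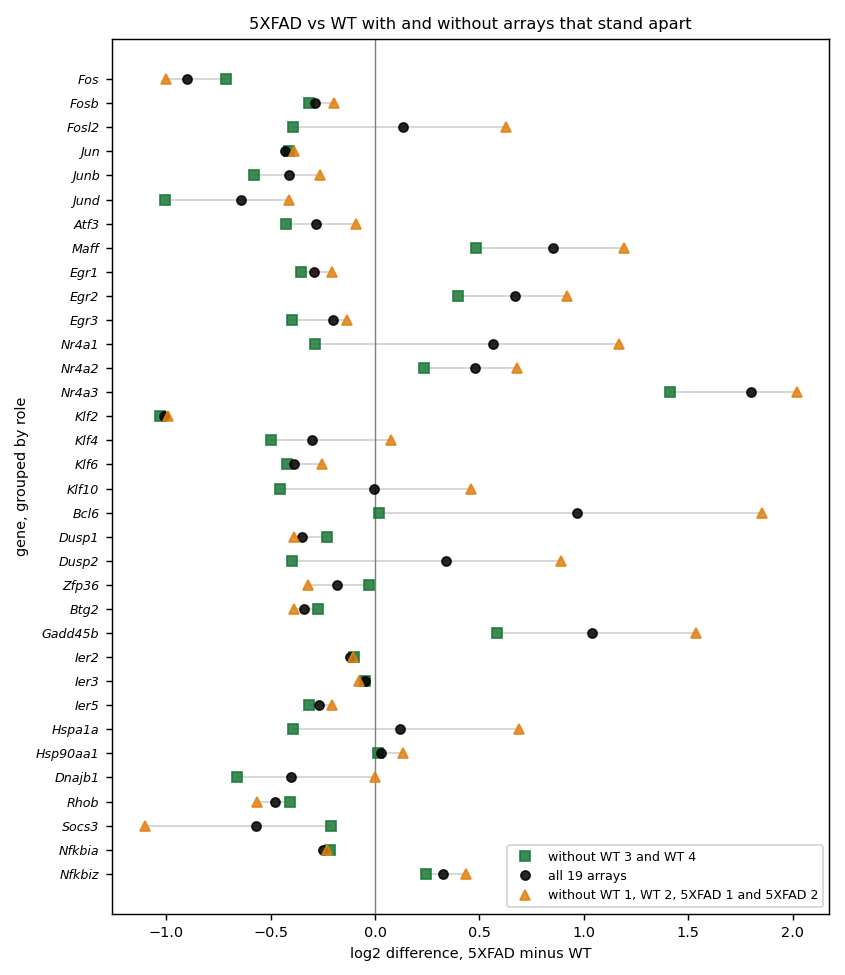
Difference in log2 level between 5XFAD and WT for each measured member, computed without WT 3 and WT 4 (squares), with all 19 arrays (circles) and without WT 1, WT 2, 5XFAD 1 and 5XFAD 2 (triangles). Klf2 and Jun keep their place, while Bcl6 lies at 0.02, 0.97 and 1.86.

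Other genes of the same pathways, listed apart from the members, were read next, where 15.0% of all genes were called in 5XFAD against WT. Among 14 other AP-1 and ATF genes 1 was called (7.14%): Maf, a large MAF factor of macrophage identity, fell by 1.10 ± 0.13 (adjusted p = 2.89e-06), and it was 0.58 ± 0.12 higher in Trem2-/-5XFAD than in 5XFAD (adjusted p = 0.00279). Of 10 other dual-specificity phosphatases 1 rose and 2 fell (30.0%): Dusp5, specific for ERK, by 0.58 ± 0.14 (adjusted p = 0.00681), Dusp7 by −1.20 ± 0.17 (adjusted p = 3.62e-05) and Dusp4 by −0.65 ± 0.20 (adjusted p = 0.0348). Of 18 SRF partners and MAP kinase genes 3 rose and 1 fell (22.2%), among them the cAMP-responsive factor Crem (0.66 ± 0.13, adjusted p = 0.00088) and the kinase Mapkapk2 (0.78 ± 0.14, adjusted p = 0.000397). Without WT 3 and WT 4 the Dusp5 difference was 0.32 ± 0.15 (adjusted p = 0.201), that of Dusp4 −1.01 ± 0.23 (adjusted p = 0.0065) and that of Mapkapk2 0.45 ± 0.13 (adjusted p = 0.0243). The list median was 0.15 for the first of these lists, −0.17 for the second and −0.09 for the third.

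Of 32 other genes listed here as handling genes, 7 were higher and 7 lower in 5XFAD than in WT (43.8%, against 15.0% of all genes). The list is of genes taken to rise when microglia are handled outside the brain. It was chosen with earlier results of these data known, and a rise with handling was not tested. The counts were 6 and 7 without WT 3 and WT 4. The prostaglandin synthase Ptgs2 rose by 3.12 ± 0.17 (adjusted p = 2.26e-11), the lectin Cd69 by 3.30 ± 0.29 (3.92e-08) and the cytokine gene Il1b by 2.54 ± 0.34 (1.89e-05). The Il1b difference was 1.57 ± 0.24 without WT 3 and WT 4 (adjusted p = 0.000233). The RNA-binding Zfp36l2 fell by 0.99 ± 0.12 (adjusted p = 3.04e-06). In Trem2-/-5XFAD against 5XFAD, 5 were higher and 3 lower (25.0%, against 7.68% of all genes). Among the 3 lower were Ptgs2 at −1.93 ± 0.15 (adjusted p = 2.03e-08) and Cd69 at −1.55 ± 0.26 (0.000443). The list median for this comparison was −0.01, against 0.04 over all genes. Of 18 other heat-shock genes 2 rose (Hspa9 and Hspe1) and 1 fell (Hsf2) in 5XFAD against WT, and 2 of 12 NF-kappaB regulators rose, Rel and Relb (16.7% for each list). Without WT 3 and WT 4, Hsf2, Rel and Relb were not called (−0.62 ± 0.21, 0.25 ± 0.11 and 0.31 ± 0.14, adjusted p = 0.0663, 0.182 and 0.184). JAK-STAT regulators had 4 of 14 higher, led by Socs6 at 1.29 ± 0.24 (adjusted p = 0.000708), and Il6ra lower (35.7%). Without WT 3 and WT 4, 2 of the 14 were higher and 1 lower, and Socs2 and Stat3 were not called. Of 11 glucocorticoid-induced genes 2 rose, among them the metallothionein Mt2 (1.18 ± 0.28, adjusted p = 0.00511), and 2 fell, among them Tsc22d3 (−0.85 ± 0.20, adjusted p = 0.00513), 36.4% in all. Tsc22d3 was not called without WT 3 and WT 4 (−0.77 ± 0.26, adjusted p = 0.0629). Of 16 clock genes 2 rose and 2 fell (25.0%), and the repressor Bhlhe40 had 4.28 ± 0.27 for 5XFAD against WT (adjusted p = 2.93e-10) and −3.75 ± 0.24 for Trem2-/-5XFAD against 5XFAD (1.22e-09).

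The same 2 WT arrays also lay outside the other arrays in some of these lists, and in others for few genes. On WT 3 and WT 4, 6 of 12 NF-kappaB regulators, 5 of 14 AP-1 and ATF genes and 9 of 32 handling genes lay below the other 17 arrays, where 2.37% of all genes did. So did 3 of 10 phosphatases, 3 of 18 SRF and MAP kinase genes, 1 of 18 heat-shock, 1 of 14 JAK-STAT, 1 of 16 clock and 1 of 11 glucocorticoid-induced genes. Above the other 17 lay 3 handling genes (Rgs2, Sgk1 and Zfp36l2), 1 phosphatase, 1 clock gene and 1 glucocorticoid-induced gene (Sgk1 again), where 2.44% of all genes did. Il1b had levels of 7.75 and 7.70 on WT 3 and WT 4 and of 9.31 and 10.04 on WT 1 and WT 2. Cd83, a surface protein of activated myeloid cells, had 10.19 and 10.02 on WT 3 and WT 4 and 11.73 and 11.95 on WT 1 and WT 2. Dusp6, an ERK phosphatase, went the other way, with 11.46 and 11.20 on WT 3 and WT 4 and 10.39 and 10.47 on WT 1 and WT 2. Of 9 microglial markers 6 lay above the other 17 arrays, by small steps: P2ry12 had 11.65 and 11.59 on WT 3 and WT 4 and 11.31 and 11.55 on WT 1 and WT 2. Among markers above the filter, none of 6 neutrophil, 8 border macrophage, 1 neuronal, 4 astrocyte, 4 vascular or 7 salivary gland markers lay outside on both. Markers at or below the filter were not examined for this.

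Markers of microglia and of other cells also moved with the genotypes. Of 9 microglial markers, 1 was higher and 5 lower in 5XFAD than in WT (66.7%, against 15.0% of all genes). Without WT 3 and WT 4, 0 were higher and 4 lower, where 11.7% of all genes were called. In Trem2-/-5XFAD against 5XFAD, 4 were higher and 0 lower (44.4%, against 7.68%). The part of these markers in the differences of the members was not tested. Border macrophage markers averaged 6.53 to 7.22 on Trem2-/-5XFAD arrays and 5.40 to 6.16 on 5XFAD arrays, and 6.64 to 7.83 on Trem2-/- arrays and 6.34 to 7.15 on WT arrays. Of the 8, 7 were higher in Trem2-/-5XFAD than in 5XFAD, and 3 were lower in 5XFAD than in WT. All 8 were above the filter, and their part in the differences of Klf2, Jun and the other members was not tested. Neutrophil markers averaged 4.25 to 5.95 on Trem2-/-5XFAD arrays, 3.89 to 4.83 on 5XFAD arrays, 4.19 to 5.67 on Trem2-/- arrays and 3.67 to 4.12 on WT arrays, and 4 of 10 (Ly6g, Ltf, Mmp8 and Cxcr2) were at or below the filter. With neutrophil markers as a covariate 16 members were called in 5XFAD against WT and 4 in Trem2-/-5XFAD against 5XFAD, where Dnajb1, Egr2 and Nr4a2 were lost. With the Y-linked signal as a covariate 13 and 6 were called, and Bcl6, Gadd45b, Nfkbiz, Nr4a2 and Socs3 were lost from the first comparison and Egr2 from the second.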

How the data were processed

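The deposited table gives, for 24679 probe sets on 20 single-colour arrays, the authors' processed intensity on a linear scale. The sources used here do not state the summary, background correction or normalization. Per the labels' protocols 2 ng of total RNA was amplified to biotinylated cRNA. Array medians were 25.7 to 28.6. Of the probe sets, 21354 were annotated to 1 gene, 1275 to several and 2050 to none. A gene was represented by its probe set of highest mean log2 level, and tested if above the array's 40th percentile on at least 4 arrays. log2(intensity + 1) was fitted with limma 3.58.1 (R 4.3.3; lmFit and eBayes, 4 group means, 19 arrays, 15 residual degrees of freedom), with Benjamini-Hochberg adjustment over 12728 genes and a threshold of 0.05. The fit was tested on simulated data with independent arrays, equal spread in all groups and shifts in 5XFAD alone. That does not cover arrays that deviate together or groups of unequal spread. The number of arrays limits the precision. The members and related lists were chosen with earlier results of these data known. Trem2 and every member were to be named, with values in every array for members called or among the 5 of widest range, and at most 4 called genes of a related list per comparison. Alternatives covered the pseudocount, filter, scaling, probe set, samples in the fit, replicate numbers, sex, salivary gland and neutrophil signals, and single arrays. 3 settings that leave out arrays were added after the data were seen. Related lists were AP-1, phosphatase, SRF and MAP kinase, heat-shock, handling, glucocorticoid, clock, NF-kappaB and JAK-STAT genes.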

Additional observations from a re-analysis of the deposited data

Results flagged for a closer look

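In 136 groups of 4 to 6 arrays, 1 per member and genotype, 8 had an array far from the rest by Dixon's test, and chance flags about 1 in 20 such groups. On Trem2-/-5XFAD 2 the level was the lowest of its group for Fos (10.63, next 11.19), Atf3 (11.94, next 12.33), Gadd45b (8.59, next 9.92) and Nfkbiz (10.96, next 11.18). On 5XFAD 3 the level was the highest of its group for Hspa1a (8.57, next 8.22) and Hsp90aa1 (11.20, next 10.56). Hsp90aa1 was also highest on Trem2-/-5XFAD 5 (10.95, next 10.88), and Jun on Trem2-/- 4 (11.87, next 11.84).

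The change with the 5XFAD transgenes differed between mice without and with Trem2 for 2 members, by the limma interaction: −1.99 for Nr4a3 (adjusted p = 4.98e-05) and 0.64 for Klf2 (adjusted p = 0.0374). The Klf2 value passed the threshold in the fit with all arrays and was lost without 12 of 19 single arrays.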

How the results depend on the processing

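Of 28 called member differences, 16 kept the call without each single array and 7 kept it in every alternative run: Fos, Jun, Klf2 and Nr4a3 in 5XFAD against WT, Klf2 and Nr4a3 in Trem2-/-5XFAD against 5XFAD, and Nr4a3 in the interaction. Over 18 other settings, 423 of 500 values kept direction and call, 76 lost the call and 1 reversed: Socs3 in 5XFAD against WT was 0.0531 without WT 3, WT 4, 5XFAD 3, 5XFAD 4 and 5XFAD 5. Without those 5 arrays the counts of members called were 9 for 5XFAD against WT, 0 for Trem2-/- against WT, 3 for Trem2-/-5XFAD against Trem2-/- and 1 for the interaction. Without WT 3 and WT 4 they were 11, 0, 2 and 1 in the same order. 5XFAD against WT gave 8 in a fit of its 2 groups alone, and 13 to 20 without single arrays, lowest without WT 3. Trem2-/-5XFAD against 5XFAD gave 4 with neutrophil markers as a covariate and 4 to 8 without single arrays, lowest without 5XFAD 2. Trem2-/- against WT gave 0 with no filter, in a fit of its 2 groups, with neutrophil markers as a covariate and with the array of conflicting labels in either group, 4 with salivary gland markers as a covariate, 9 without WT 1, WT 2, 5XFAD 1 and 5XFAD 2, and 0 to 4 without single arrays. Trem2-/-5XFAD against Trem2-/- gave 1 with a pseudocount of 16, in a fit of its 2 groups, with a trend in eBayes and without Trem2-/-5XFAD 2, 4 without WT 1, WT 2, 5XFAD 1 and 5XFAD 2, and 0 to 1 without single arrays. The interaction gave 1 with arrays centred on the median, 9 without WT 1, WT 2, 5XFAD 1 and 5XFAD 2, and 1 to 3 without single arrays. The cause of these shifts was not tested. Same-numbered arrays deviated together in few of the 25 pairs (correlation −0.10 to 0.17, 5 over 0.1), and 5 of 19 arrays correlated best with their own number, so the numbers were not taken as pairs. With the replicate number as a block, 14, 4, 0, 0 and 2 members were called in 5XFAD against WT, Trem2-/-5XFAD against 5XFAD, Trem2-/- against WT, Trem2-/-5XFAD against Trem2-/- and the interaction.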

Other observations

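The array titled as WT but given the genotype Trem2-/- had a Trem2 level of 11.08, against 6.84 to 7.02 on Trem2-/- arrays and 11.14 to 11.39 on WT arrays. Its other levels were 9.01 for Bcl6, 5.51 for Nr4a3, 9.20 for Klf2, 11.65 for Fos, 10.50 for Nr4a1 and 7.83 for Dusp2.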
